A study of Mus musculus with 22 samples.

Results

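A set of 6 genes that mark T cells of the gamma-delta lineage or the type 17 programme of lymphocytes was followed in stromal cells sorted from mouse tumors: Tcrg-C1, Cd163l1, Il17a, Il17f, Il23r and Sox13. They were chosen by symbol, and all 6 of 6 were present among the 41388 genes counted. The 22 libraries were of C57BL/6 mice at postnatal day 56 that carried Ai9, a Cre-dependent tdTomato (TdT) reporter. The mice labelled wild type were Osx-cre;Ai9 (4 inoculated), with a Cre recombinase under the tetracycline-repressible promoter of Osx (Sp7). Per the study they had been fed doxycycline until weaning. Their red cells are thus those with Osx promoter activity after that, and the descendants of such cells. The other mice were labelled Cdh2-cKO;Ai9 (6 mice), a conditional knockout of Cdh2, the gene of N-cadherin, for which the sources used here name neither the Cre driver nor the doxycycline feeding.

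The tumors were grown from GFP-labelled mouse breast cancer cells, a line named MMTV-BO1 in the sample labels and PyMT-BO1 by the study, described as orthotopic in those labels and as subcutaneous in the design text and by the study, and were sorted 2 weeks after inoculation, when GFP+ tumor cells were set aside. The remaining cells were separated by tdTomato and by CD45, the pan-leukocyte surface protein encoded by Ptprc, into double positive (TdTOSX+;CD45+), CD45 single positive (TdTOSX-;CD45+), TdTOSX single positive (TdTOSX+;CD45-) and double negative cells. Each genotype gave 2 libraries of TdTOSX single positive cells and 3 of every other population. The replicate numbers are not said to mark a mouse, and whether a library pooled mice is not stated, so p-values measure the spread between these libraries.

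Gamma-delta T cells carry a receptor made of a gamma and a delta chain in place of the alpha and beta chains of most T cells. A subset of them, common in skin, mucosa and tumors, leaves the thymus already programmed to secrete IL-17 upon IL-1 and IL-23, a programme that conventional T helper 17 cells and group 3 innate lymphoid cells share. The transcription factor Sox13 takes part in the thymic programming of this subset, the scavenger receptor Scart1, encoded by Cd163l1, sits on its surface, Il23r encodes its receptor for IL-23, and Il17a and Il17f encode the cytokines themselves, which make stromal cells release neutrophil attractants.

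Depth ran from 16594228 to 26784003 counted reads per library, at which the smallest signal taken as present, 3 counts, was worth 0.103 to 0.201 normalised CPM, the unit of counts scaled to library size. One library stood apart. Wild type CD45 single positive replicate 2 had a summed level of 12 pan T cell markers of 3405 CPM against 33.6 to 773 in the other 11 CD45+ libraries, 3808 CPM of 6 B cell markers against 13.3 to 27.4, and 3672 CPM of 7 macrophage markers against 11155 to 16082. Among CD45- libraries, wild type double negative replicate 3 held 337 CPM of Ptprc and 8441 CPM of the macrophage markers, and the libraries labelled Cdh2-cKO TdTOSX single positive 164 and 89.9 CPM of Ptprc. Cdh2 itself went against its label: it was at 12.5 to 18.4 CPM in the 5 CD45- libraries labelled Cdh2-cKO and at 4.52 to 9.13 CPM in the 5 wild type ones, and at 0 to 2.74 CPM in every CD45+ library. Sp7 had at most 1 count in any library, so the label Osx+ rests on the reporter alone. In bulk RNA of a sorted population, fewer cells of a type and less RNA per cell cannot be told apart.

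Tcrg-C1 (ENSMUSG00000076749) encodes a constant region of the T cell receptor gamma chain, and lies on the plus strand at chr13:19214103-19217024 (GRCm38). Its 3 counted pieces cover 518 coding bases. Of 469 windows of 50 bases, the read length, in that stretch, 154 (32.8%) also occurred in Tcrg-C2 or Tcrg-C3, whose coding bases are 97.4% and 96.9% identical to it, and none in Tcrg-C4. Reads from shared windows align to more than 1 place and were not counted. The 50 coding bases in which Tcrg-C1 and Tcrg-C3 differ most, bases 109 to 158, are shown to mark what tells a counted read apart, with the 5 differing bases in capitals (GENCODE M21 transcripts, plus strand):
Tcrg-C1: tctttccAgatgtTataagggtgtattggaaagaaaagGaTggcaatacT
Tcrg-C3: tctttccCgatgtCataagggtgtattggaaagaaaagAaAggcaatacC

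The counts of Tcrg-C1 were confined mostly to CD45+ cells, which held 95.2% of its 336 counts over all libraries. Wild type double positive libraries had 0.951, 1.11 and 4.22 CPM (16, 19 and 80 counts). Wild type CD45 single positive libraries had 0.241, 7.62 and 0 CPM (4, 133 and 0 counts), the 7.62 being replicate 2. The libraries labelled Cdh2-cKO had 0.0552, 1.60 and 0.120 CPM in double positive cells and 1.54, 0 and 0.256 CPM in CD45 single positive cells. Every wild type double positive library was thus above the lower pair of wild type CD45 single positive libraries and below the third, while in the mice labelled Cdh2-cKO 1 library of each population was high and the others were not.

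In CD45- cells Tcrg-C1 was at or above 3 counts in 2 of 10 libraries, wild type double negative replicate 3 with 7 counts and Cdh2-cKO TdTOSX single positive replicate 2 with 6. The first of these is the library with the Ptprc and macrophage marker levels given above. The second held 100 counts of Cd3d, Cd3e and Cd3g, the invariant chains of the T cell receptor complex, while replicate 1 of the same group held 396 of them and wild type TdTOSX single positive replicate 2 held 320, both with no count of Tcrg-C1. The part of either value in the result was not tested.

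Cd163l1 (ENSMUSG00000025461), on the plus strand of chr7:140218267-140231145, was counted over 3454 bases, none of which formed a 50-base window found in another gene. It had 397 counts in all, 95.2% of them in CD45+ cells. In wild type double positive cells the libraries had 1.37, 1.52 and 7.39 CPM (23, 26 and 140 counts), and in wild type CD45 single positive cells 0, 7.51 and 0 CPM (0, 131 and 0 counts). Cdh2-cKO double positive libraries had 0.276, 0.631 and 0 CPM, and Cdh2-cKO CD45 single positive libraries 2.14, 0.0669 and 0 CPM. Its pattern over the libraries followed that of Tcrg-C1, with Pearson r = 0.95 over the 12 CD45+ libraries (log2 of CPM + 0.5) and 0.92 over 11 without wild type CD45 single positive replicate 2, a description over libraries that share depth and T cell content. On the per-length scale, Tcrg-C1 in wild type double positive cells was at 4.04 ± 3.56 RPKM and Cd163l1 at 0.992 ± 0.994 (SD, n = 3).

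**Figure D1:**
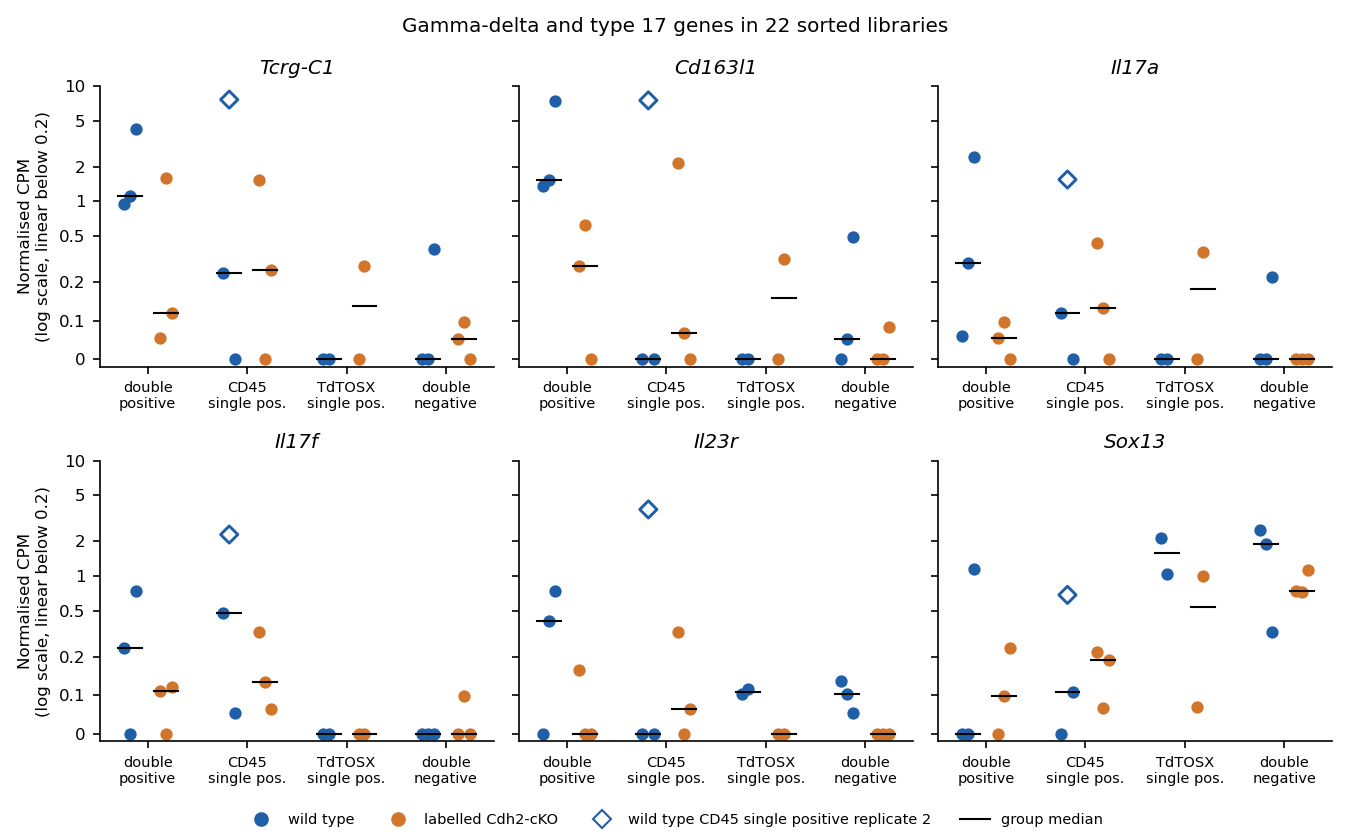
Normalised CPM of the 6 genes (y axis, logarithmic above 0.2 and linear below) in each of the 22 libraries by sorted population (x axis), with wild type libraries in blue, libraries labelled Cdh2-cKO in orange, group medians as black bars and wild type CD45 single positive replicate 2 as an open diamond. That library is the highest point for Tcrg-C1 (7.62), Cd163l1 (7.51), Il17f (2.29) and Il23r (3.78), while Sox13 has its highest values, up to 2.53, in CD45- cells.

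The cytokine genes and the receptor gene were rarer. Il17a (ENSMUSG00000025929, plus strand, chr1:20730905-20734496) and Il17f (ENSMUSG00000041872, minus strand, chr1:20777146-20790617) are neighbours, and Il23r (ENSMUSG00000049093, minus strand) lies at chr6:67422932-67491855. AGGTCA is a half-site at which many nuclear receptors bind DNA. The 250 bases before the start site of these 3 genes (RefSeq, GRCm38.p6, 5′ to 3′ on the gene's strand) are shown because the letters AGGTCA, or TGACCT on the other strand, stand in each, in capitals:
Il17a (chr1:20730655-20730904, plus strand): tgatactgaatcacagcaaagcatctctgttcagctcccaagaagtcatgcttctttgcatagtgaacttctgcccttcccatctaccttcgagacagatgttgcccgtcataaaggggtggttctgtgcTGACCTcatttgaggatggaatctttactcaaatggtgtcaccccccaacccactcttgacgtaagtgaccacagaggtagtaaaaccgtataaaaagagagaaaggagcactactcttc
Il17f (chr1:20784271-20784520, minus strand): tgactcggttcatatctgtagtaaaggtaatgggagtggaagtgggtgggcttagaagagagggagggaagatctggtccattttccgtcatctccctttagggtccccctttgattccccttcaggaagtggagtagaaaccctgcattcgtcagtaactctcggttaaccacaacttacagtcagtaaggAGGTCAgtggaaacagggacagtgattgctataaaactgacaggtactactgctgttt
Il23r (chr6:67491856-67492105, minus strand): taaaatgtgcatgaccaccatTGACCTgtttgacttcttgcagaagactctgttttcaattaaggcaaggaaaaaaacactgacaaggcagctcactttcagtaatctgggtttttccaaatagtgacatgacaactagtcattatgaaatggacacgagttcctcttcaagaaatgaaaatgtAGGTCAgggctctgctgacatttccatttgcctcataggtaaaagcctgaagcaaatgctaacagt

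The letters lay 120 to 115 bases before the start in Il17a, 58 to 53 in Il17f, and 229 to 224 and 66 to 61 in Il23r. The windows of Cd163l1 and Sox13 held none, and 14.02% of 32851 such windows over all genes, on both strands, held at least 1, so that by the letters alone the matches are a description of these windows. Promoter sequences matched 5 of the 6 genes, Tcrg-C1 being the exception.

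Il17a had 1, 5 and 46 counts in wild type double positive libraries (0.0594, 0.292 and 2.43 CPM) and 2, 27 and 0 counts in wild type CD45 single positive libraries (0.120, 1.55 and 0 CPM). In Cdh2-cKO libraries it had 1, 2 and 0 counts in double positive and 8, 2 and 0 in CD45 single positive cells. A single library of each wild type population, double positive replicate 3 with 43.4% and CD45 single positive replicate 2 with 25.5%, gave most of its 106 counts. Outside CD45+ cells it passed 3 counts in the same pair of libraries as Tcrg-C1, with 4 and 8 counts.

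Il17f had 4, 0 and 14 counts in wild type double positive libraries and 8, 40 and 1 in wild type CD45 single positive libraries. The libraries labelled Cdh2-cKO had 2, 0 and 2 counts in double positive and 6, 2 and 1 in CD45 single positive cells. It is the gene of the set with the fewest counts outside CD45+ cells, 2 in 10 libraries. Some of its reads could not be counted, since 5.63% of its 50-base windows occur in 169 other genes.

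Il23r had 0, 7 and 14 counts in wild type double positive libraries and 0, 66 and 0 in wild type CD45 single positive libraries, replicate 2 of the latter giving 61.1% of all its 108 counts. Cdh2-cKO libraries had 3, 0 and 0 counts in double positive and 6, 0 and 1 in CD45 single positive cells. Unlike the cytokine genes, Il23r had 1 to 3 counts in each of the 5 wild type CD45- libraries and none in the 5 Cdh2-cKO ones, values at the limit of detection. With no filter on low counts, edgeR's quasi-likelihood test did not call this difference (log2 fold change -4.12, adjusted p = 0.657). The share of all genes that split the genotypes in this way is not given here.

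Sox13 (ENSMUSG00000070643, minus strand, chr1:133382303-133424377), a SRY-box transcription factor, stood apart from the other 5 genes, with 16.8% of its 297 counts in CD45+ cells. TdTOSX single positive libraries had 2.14 and 1.05 CPM in wild type mice and 0.0685 and 1.002 in those labelled Cdh2-cKO. Double negative libraries had 2.53, 1.89 and 0.330 CPM in wild type mice, the lowest being replicate 3, and 0.736, 0.727 and 1.13 in those labelled Cdh2-cKO. In CD45+ cells it reached 1 CPM only in wild type double positive replicate 3 (1.16 CPM, 22 counts), followed by wild type CD45 single positive replicate 2 (0.687 CPM, 12 counts), and the other 10 libraries had 0 to 4 counts. The pair of CD45+ libraries with the most Tcrg-C1 was thus also the pair with the most Sox13, on a gene whose main level was in CD45- cells.

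The first comparison set the 12 CD45+ libraries against the 10 CD45- libraries of both genotypes. The genes of the gamma-delta receptor, Scart1 and IL-17A were higher in CD45+ cells and Sox13 was lower. Tcrg-C1 had a mean of 1.48 ± 2.28 CPM (SD, n = 12) in CD45+ against 0.0808 ± 0.137 (n = 10) in CD45- cells, a ratio of 18.3, and Cd163l1 1.74 ± 2.76 against 0.0949 ± 0.172, a ratio of 18.3. Il17a had 0.431 ± 0.762 against 0.0585 ± 0.128 CPM, a ratio of 7.37. Sox13 had 0.231 ± 0.350 against 1.16 ± 0.793 CPM, a level 5.02 times higher in CD45- cells. In CD45+ cells the SD passed the mean for each of these 4 genes.

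Of the 6 genes, 4 passed the filter on low counts (over 1 CPM in at least 2 of the 22 libraries), Il17f and Il23r being over 1 CPM in 1 library each. With edgeR's quasi-likelihood test, Tcrg-C1 was higher in CD45+ cells by 4.59 on the log2 scale (SE 1.24, adjusted p = 0.00408), Cd163l1 by 4.55 (SE 1.35, adjusted p = 0.00732) and Il17a by 3.36 (SE 1.29, adjusted p = 0.0335). Sox13 fell by 2.28 (SE 0.726, adjusted p = 0.0110). These calls stand against a background of 63.7% of 15018 genes called in this comparison, 32.6% higher and 31.1% lower, with a median log2 fold change of 0.06 over all genes. The fitted folds of the first 3 genes depend on the prior count, since the wild type TdTOSX single positive libraries had no count of them. Those 3 genes reached at most 0.385, 0.496 and 0.365 CPM in CD45- cells. They thus passed the filter through CD45+ libraries alone, which favoured a call in that direction. The sort on CD45, the pan-leukocyte protein, favoured it too for genes of lymphocytes.

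Without the filter, edgeR's quasi-likelihood test also called Il17f (log2 fold change 4.70, SE 1.04, adjusted p = 0.000984) and Il23r (3.24, SE 1.11, adjusted p = 0.0264) higher in CD45+ cells, which made 5 genes higher and 1 lower where 33.1% of 30046 genes were called. Without wild type CD45 single positive replicate 2, Tcrg-C1 remained higher by 3.49 (SE 1.15, adjusted p = 0.0138) and Sox13 fell by 2.81 (SE 0.747, adjusted p = 0.00335), while Il17a no longer passed the filter and Cd163l1 had no counts left in its wild type CD45 single positive group and an adjusted p near 1, where 67.1% of genes were called. As ratios of means, Cd163l1 was then 12.8 times, Il17a 5.64 times and Il23r 3.02 times higher in CD45+ cells. Without both that library and the filter, chosen after seeing the data, the quasi-likelihood test still called Tcrg-C1 (adjusted p = 0.00471) and Il17f (0.00143) higher. Sox13 was again lower (adjusted p = 0.000788). Il17a lost its call (adjusted p = 0.0638). Il23r and Cd163l1 had an adjusted p near 1, with SEs of 3816 and 5534. Each then had no count in a CD45+ group and in a CD45- group, so these fits do not measure the difference. The same holds for Cd163l1 in the fit with the filter (SE 6649). With limma's voomWithQualityWeights, the software of the study with another contrast, 1 gene (Tcrg-C1) was higher and Sox13 lower, with 66.1% of genes called. The count of genes called higher was also 1 without Cdh2-cKO CD45 single positive replicate 1, and Sox13 lost its call (adjusted p = 0.127) without Cdh2-cKO TdTOSX single positive replicate 2.

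Further genes of the same biology were read from lists of receptor segments, transcription factors and surface molecules. Of 18 gene symbols listed for the gamma-delta receptor locus, 15 were in the files and 5 passed the filter, and all 5 were higher in CD45+ cells (Tcrg-C1, Tcrg-C2, Tcrg-C4, Tcrg-V6 and Trdv4), with a median log2 fold change of 4.59 against 0.06 over all genes. The counts of this paragraph stand beside the 32.6% of all genes called higher and 31.1% called lower. In CD45- libraries the 15 genes of the locus summed to at most 1.49 CPM, so the 5 passed the filter through CD45+ libraries. That largely set their direction in advance. Among 14 transcription factors of the type 17 programme, 5 were higher (Maf, Batf, Irf4, Ahr and Etv5), 5 lower (Rora, Sox13, Sox4, Zbtb16 and Runx1) and 4 not called. Of 16 cytokines and surface receptors of the programme 11 were tested, of which 6 were higher (Il17a, Il7r, Ccr6, Cd163l1, Il18r1 and Itgae), 1 lower (Il1r1, the IL-1 receptor) and 4 not called. Several of the higher genes, Maf and Batf among them, are known in myeloid cells as well as in T cells, and 7 of 7 macrophage markers and 11 of 12 pan T cell markers were higher in the same comparison. The part of either cell type in these counts was not tested.

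Genes on the other side of the pathway were called in both directions, as were all genes (32.6% higher and 31.1% lower). Of 8 cytokines that induce or support type 17 cells, 5 were higher in CD45+ cells (Il23a, Il12b, Il1b, Il1a and Tgfb1) and 3 lower (Il6, Il7 and Ccl20). The genes of the IL-17 receptor and its adaptors gave 4 of 7 higher (Il17ra, Traf6, Nfkbiz and Zc3h12a) and 3 lower (Il17rc, Il17rd and Traf3ip2, the gene of the adaptor Act1). IL-17 response genes gave 3 of 12 higher (Cxcl2, Ccl2 and Ccl7), 6 lower (Cxcl5, Csf2, Lcn2, Il6, Ccl20 and Mmp3) and 3 not called, with a median log2 fold change of -1.02. Of 10 genes of cytotoxic and type 1 gamma-delta cells, such as Tbx21, Ifng and Gzmb, 10 were higher. The sort on CD45, the pan-leukocyte protein, largely set that direction in advance, as for the T cell and macrophage markers above.

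The second comparison asked whether the CD45+ cells with a history of Osx promoter activity differ from those without. None of the 4 tested genes passed the test between double positive and CD45 single positive cells over both genotypes. With edgeR's quasi-likelihood test the log2 fold change of double positive over CD45 single positive was -0.17 (SE 1.18) for Tcrg-C1, -0.40 (SE 1.26) for Cd163l1, -0.51 (SE 1.22) for Il17a and 0.02 (SE 2.05) for Sox13, each with an adjusted p near 1. The test called 1 of all 15018 genes (0.00666%), and no gene of the 4 had an unadjusted p under 0.05, against 4.06% of all genes. DESeq2 also called none and gave none an unadjusted p under 0.05, and voomWithQualityWeights called none and gave 1 (Cd163l1). For voomWithQualityWeights the share of all genes with such a p is not given, here or below, so its counts have no background.

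Within wild type mice the values were -0.32 (SE 1.62) for Tcrg-C1, 0.45 (SE 1.72) for Cd163l1, 0.74 (SE 1.56) for Il17a and 0.56 (SE 1.39) for Sox13, with no call and no unadjusted p under 0.05 in the quasi-likelihood test, which called 0 of 15018 genes and gave 4.45% of them an unadjusted p under 0.05. In the mice labelled Cdh2-cKO they were -0.02 (SE 1.71), -1.26 (SE 1.90), -1.77 (SE 2.02) and -0.53 (SE 1.61), again with no call and no unadjusted p under 0.05, against 4.81% of genes. These SEs ran from 1.39 to 2.02. The log2 fold change of 4.10 given below for Tcrg-C1, from a fit without wild type CD45 single positive replicate 2, had its own SE of 2.02 and was not called either. The difference between the genotypes in this contrast was called for none of the 4 genes, with a smallest adjusted p of 0.962 in the same test and no unadjusted p under 0.05, against 4.36% of genes. DESeq2 called none of the 4 in the 3 contrasts and gave no unadjusted p under 0.05, and voomWithQualityWeights called none, gave Tcrg-C1 and Cd163l1 an unadjusted p under 0.05 in wild type mice and in the difference between genotypes, and gave none in the mice labelled Cdh2-cKO. These counts of voomWithQualityWeights again stand without its share over all genes.

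**Figure D2:**
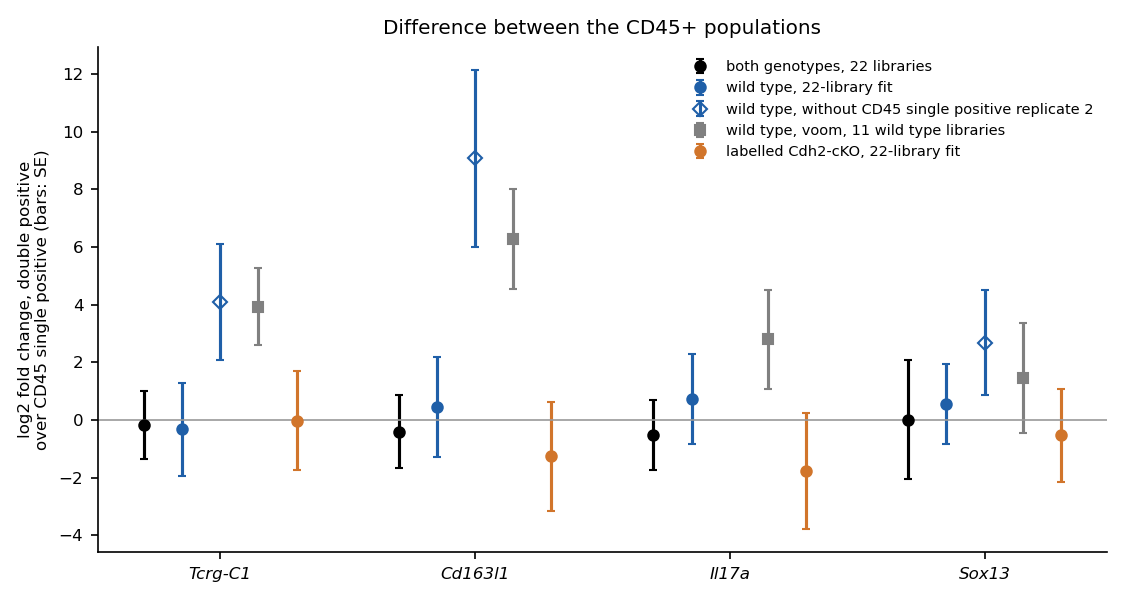
Log2 fold change of double positive over CD45 single positive cells (y axis, bars are SE) for the 4 genes that passed the filter (x axis), over both genotypes, in wild type mice with and without CD45 single positive replicate 2, in wild type mice with voomWithQualityWeights on the 11 wild type libraries, and in mice labelled Cdh2-cKO. The Tcrg-C1 value in wild type mice moves from -0.32 to 4.10 when the 1 library is left out, and Il17a has no value there because it no longer passed the filter.

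The wild type values rested on 1 library. Without CD45 single positive replicate 2, Tcrg-C1 had a log2 fold change of 4.10 (SE 2.02) and an unadjusted p of 0.0605, and Cd163l1 an unadjusted p of 0.0101, both with an adjusted p of 1 in edgeR's quasi-likelihood test over 14839 genes. For Cd163l1 the other 2 CD45 single positive libraries had no count, so the fitted fold is no bound. Taken against 3 counts per library in those 2, the mean of 3.43 CPM (SD 3.43, n = 3) in double positive cells was at least 20.03-fold higher. That mean rested mostly on replicate 3 (7.39 CPM, against 1.37 and 1.52 CPM in replicates 1 and 2). The ratio describes these libraries, with CD45 single positive replicate 2 (7.51 CPM) left out, and is no bound for the populations. With voomWithQualityWeights on the wild type libraries alone, an alternative chosen after seeing the data, the log2 fold change was 3.93 (SE 1.34) for Tcrg-C1 and 6.27 (SE 1.74) for Cd163l1 with all 11, and 4.66 (SE 1.49) and 6.85 (SE 1.73) without replicate 2. Their unadjusted p was 0.0136 and 0.00412 with all 11 libraries and 0.0111 and 0.00278 without replicate 2, while the adjusted p was near 1 throughout.

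With all libraries, none of the 6 genes had every wild type double positive library above every CD45 single positive one, as 1.71% of genes had. Without replicate 2, Tcrg-C1 and Cd163l1 did, as 7.58% of genes did. Both genes are in the study's own list of genes high in double positive cells, which was drawn from the wild type libraries of this series, so the wild type values are not independent evidence of that direction. For Cd163l1 the study also reports higher expression by real-time PCR in double positive cells sorted from melanoma tumors, a source apart from these libraries. In the mice labelled Cdh2-cKO, which that list did not use, none of the 6 genes had every double positive library above every CD45 single positive one, against 9.12% of genes.

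No gene of any list was called between the double positive and the CD45 single positive cells over both genotypes. The median log2 fold change was -0.75 for the 5 tested receptor segments, -0.40 for the 11 type 17 cytokines and receptors, -0.06 for the 14 transcription factors, -0.89 for the 12 pan T cell markers, -3.13 for 4 B cell markers and 0.14 for 7 macrophage markers, against -0.06 over all genes. Wild type CD45 single positive replicate 2, with the highest T and B cell marker levels given above, is in these values, and the part of either cell type in them was not tested.

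To set the genes beside T cell content, their counts were divided by the summed counts of Cd3d, Cd3e and Cd3g. Those sums were 382, 2082 and 5154 in wild type double positive, 247, 22127 and 221 in wild type CD45 single positive, 447, 366 and 154 in Cdh2-cKO double positive and 779, 136 and 70 in Cdh2-cKO CD45 single positive libraries. Per 1000 Cd3 counts, wild type CD45 single positive replicate 2 had 6.01 counts of Tcrg-C1 (95% exact interval 5.03 to 7.13) and 5.92 of Cd163l1 (4.95 to 7.03). Wild type double positive libraries had 41.9, 9.13 and 15.5 of Tcrg-C1, of which only the 5.48 to 14.3 interval of replicate 2 reaches the former value's, and 60.2, 12.5 and 27.2 of Cd163l1. The library with the highest CPM of both genes was thus below all wild type double positive libraries once counts were set per Cd3. The intervals cover counting error only. The same library had 1.22 counts of Il17a per 1000 Cd3 counts, below the 2.62, 2.40 and 8.93 of wild type double positive libraries. Its 1.81 of Il17f and 2.98 of Il23r lay within the range of those libraries. They had 10.5, 0 and 2.72 of Il17f and 0, 3.36 and 2.72 of Il23r.

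Among libraries labelled Cdh2-cKO, double positive replicate 2 had 90.2 counts of Tcrg-C1 and 35.5 of Cd163l1 per 1000 Cd3 counts, and CD45 single positive replicate 1 had 35.9 and 50.1. The others had 0 to 57.1 of Tcrg-C1 and 0 to 11.2 of Cd163l1 on 70 to 447 Cd3 counts. The medians over 6 libraries were 14.3 in double positive and 11.1 in CD45 single positive cells for Tcrg-C1, and 19.8 and 2.96 for Cd163l1, with ranges of 2.24 to 90.2 and 0 to 57.1 for the former and 0 to 60.2 and 0 to 50.1 for the latter. The populations overlapped on this scale for both genes.

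**Figure D3:**
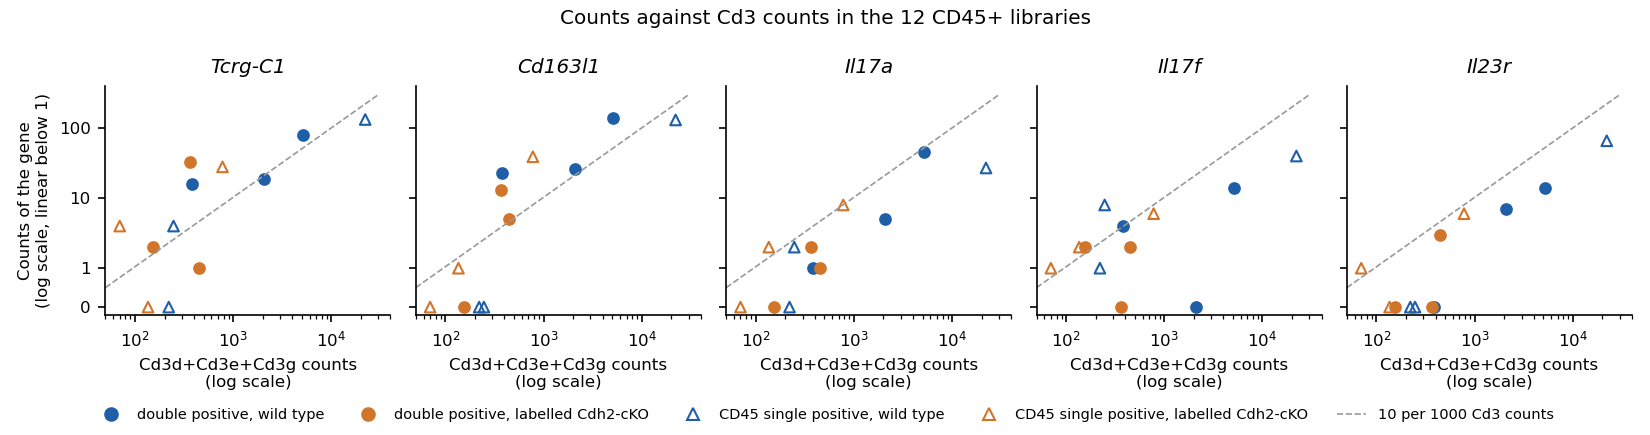
Counts of 5 genes (y axis, logarithmic above 1 and linear below) against the summed counts of Cd3d, Cd3e and Cd3g (x axis, logarithmic) in the 12 CD45+ libraries, with double positive cells as filled circles, CD45 single positive cells as open triangles and a dashed line at 10 counts per 1000 Cd3 counts. The triangle at 22127 Cd3 counts lies below the line in each panel, at 6.01 per 1000 for Tcrg-C1 and 5.92 for Cd163l1, and the wild type double positive circles lie at 9.13 to 41.9 and 12.5 to 60.2. The wild type triangles of replicates 1 and 3 lie at 16.2 and 0 for Tcrg-C1 and at 0 for Cd163l1.

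The shares of the receptor segments differed between libraries. In wild type CD45 single positive replicate 2, Tcrg-C1, Tcrg-C2 and Tcrg-C4 had similar counts (133, 123 and 130), so that Tcrg-C1 made up 34.02% of the counts of the 4 gamma constant genes (95% Clopper-Pearson interval 29.3% to 38.9%). In wild type double positive libraries it made up 84.2% (60.4% to 96.6%), 44.2% (29.1% to 60.1%) and 54.8% (46.4% to 63.0%), and in Cdh2-cKO double positive replicate 2 71.7% (56.5% to 84.0%). Cdh2-cKO CD45 single positive replicate 1 was in the same range at 57.1% (42.2% to 71.2%), or 28 of 49 counts, so the lower share was that of 1 library and not of the population. The other CD45+ libraries had 1 to 11 counts of the 4 genes together, and Tcrg-C1 gave 4 of 5 in wild type CD45 single positive replicate 1, 4 of 11 in Cdh2-cKO CD45 single positive replicate 3, and 1 of 4 and 2 of 6 in Cdh2-cKO double positive replicates 1 and 3. Reads that fit more than 1 of the near-identical copies were not counted, and Tcrg-C4 shares no 50-base window with Tcrg-C1, so the shares are of counted reads and not of transcripts.

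Tcrg-V4 and Tcrg-V6 are among the variable segments that rearrange to the cluster of Tcrg-C1. Tcrg-V6, a segment used by gamma-delta T cells with a fixed IL-17 programme, made up 41 of 54 gamma variable counts in wild type double positive replicate 3 (75.9%, 62.4% to 86.5%) and 8 of 9 in replicate 2, while replicate 1 had 0 of 3. It made up 34 of 95 in wild type CD45 single positive replicate 2 (35.8%, 26.2% to 46.3%), where Tcrg-V4 gave 52 (54.7%, 44.2% to 65.0%). In Cdh2-cKO CD45 single positive replicate 1 the order was the other one, with 7 of 16 counts from Tcrg-V6 and 4 from Tcrg-V4. Trdv4, a variable segment of the delta chain, had 26, 38 and 119 counts in wild type double positive, 0, 227 and 3 in wild type CD45 single positive, 3, 7 and 10 in Cdh2-cKO double positive and 44, 3 and 3 in Cdh2-cKO CD45 single positive libraries. These are values of single libraries, set side by side without a test between populations.

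Other genes of the type 17 programme gave the same order of libraries in part. 5830411N06Rik, the gene of the related scavenger receptor Scart2, had 7, 2 and 18 counts in wild type double positive libraries and 233 in wild type CD45 single positive replicate 2, against 1 and 0 in its other replicates. The ratio of the related receptors thus differed between libraries, Cd163l1 having 140 counts to 18 in double positive replicate 3 and 131 to 233 in CD45 single positive replicate 2. Il21 and Il22 had at most 34 and 3 counts in any library.

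**Figure D4:**
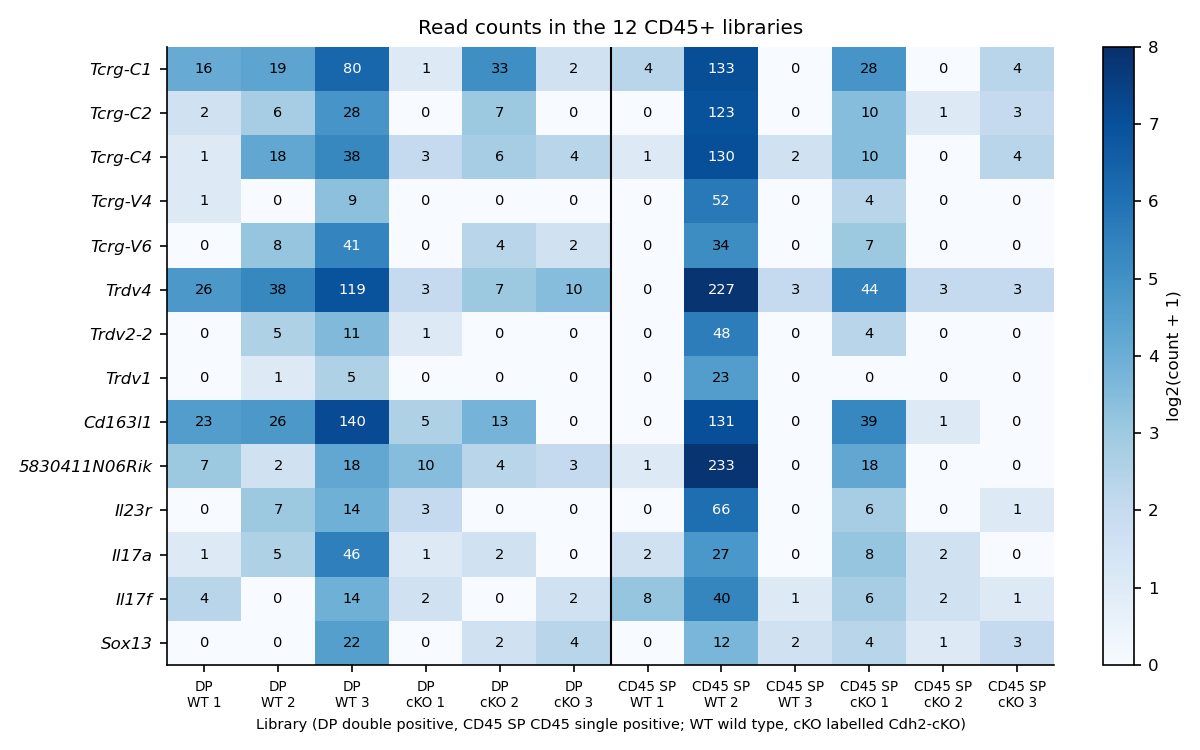
Read counts of gamma and delta receptor segments and type 17 genes (rows) in the 12 CD45+ libraries (columns), shaded by log2(count + 1), with the count written in each cell. The columns of wild type double positive replicate 3 and CD45 single positive replicate 2 are the darkest, with Tcrg-V6 above Tcrg-V4 in the former (41 and 9) and below it in the latter (34 and 52).

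The third comparison set the mice labelled Cdh2-cKO against wild type mice. In double positive cells none of the 4 tested genes passed the test. Their log2 fold changes were -1.79 (SE 1.70) for Tcrg-C1, -3.45 (SE 1.95) for Cd163l1, -3.98 (SE 1.93) for Il17a and -1.78 (SE 1.504) for Sox13, with adjusted p of 1 and no unadjusted p under 0.05 in edgeR's quasi-likelihood test, which called 0 of 15018 genes and gave 3.43% an unadjusted p under 0.05. DESeq2 called none and gave no unadjusted p under 0.05, and voomWithQualityWeights called none and gave 3 (Tcrg-C1, Cd163l1 and Il17a), with a smallest adjusted p of 0.336. The share of all genes with such a p under voomWithQualityWeights is not given, so the 3 have no background to be read against. Of the 6 genes, Cd163l1 alone had every Cdh2-cKO library (0 to 0.631 CPM) below every wild type library (1.37 to 7.39 CPM), as 6.05% of all genes had. Cd3e, the T cell marker, was at 9.21, 35.7 and 89.6 CPM in the wild type libraries and at 4.21 to 11.3 CPM in the Cdh2-cKO ones, and its part in the difference was not tested.

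In CD45 single positive cells the quasi-likelihood test called none of the 4 genes between genotypes, with a smallest adjusted p of 0.708 and no unadjusted p under 0.05, against 9.81% of genes, and DESeq2 and voomWithQualityWeights also called none and gave no unadjusted p under 0.05. Without wild type CD45 single positive replicate 2 the quasi-likelihood test gave 1 unadjusted p under 0.05 (Cd163l1, 0.0474, adjusted p = 1). Sox13, the gene of the set with most counts in CD45- cells, had a log2 fold change of -1.23 (SE 1.004, adjusted p = 0.711) in Cdh2-cKO over wild type CD45- cells, with ranges of 0.0685 to 1.13 and 0.330 to 2.53 CPM that overlapped.

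Within CD45- cells, the contrast of TdTOSX single positive with double negative cells over both genotypes gave no call of Sox13 or of the other tested genes with the quasi-likelihood test or voomWithQualityWeights, and no unadjusted p under 0.05 with either, where the first called 1.89% of 15018 genes. DESeq2 called 1, Cd163l1 lower in TdTOSX single positive cells (adjusted p = 0.0242), on 7 and 12 counts in the 2 populations, where it called 3.1% of genes lower.

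By likeness over the 12 CD45+ libraries (Pearson r of log2 CPM with a prior count of 2 in place of the 0.5 CPM used for the pair above, a description over libraries that share depth and cell content), the genes closest to Tcrg-C1 were Cyp11a1 (r = 0.93), Trdj2 (0.93) and Klrb1f (0.92), and those closest to Cd163l1 were Actn2 (0.93), Trdj2 (0.93) and Zfp287 (0.92). Trdj2 is a joining segment of the delta chain. Closest to Il17a were Trav5-4 (0.94), an alpha variable segment, and the lymphocyte genes Cd7 (0.93) and Trat1 (0.93), and closest to Sox13 were Tmc3 (0.94), Elfn1 (0.85) and Kcnk10 (0.85). Without wild type CD45 single positive replicate 2 these r were between 0.82 and 0.92. Il17f and Il23r, which did not pass the filter, were not ranked.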

How the data were processed

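RNA of sorted cells had been amplified with the SMARTer Ultra Low kit and sequenced as single 50-base reads. Reads had been aligned to Ensembl release 76 (GRCm38) with STAR 2.0.4b, and uniquely aligned, unambiguous reads counted per gene with featureCounts, 1.45 in the submitters' processing notes. The setting for strand is not given in the sources used here. The deposited values are raw counts per gene. The authors also deposited CPM, these counts scaled by library total, and RPKM, scaled by gene length as well. Neither was analysed: both matched the scaled counts to within a relative 5.1e-14.

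Of 41388 genes, 355 of ribosomal RNA were excluded, and 15018 had over 1 CPM in at least 2 of 22 libraries. Gene symbols matched 40254 genes. In R 4.3.3, edgeR 4.0.16 fitted a quasi-likelihood model to the counts with TMM factors and 1 mean per population and genotype over all 22 libraries, with Benjamini-Hochberg adjustment over all genes and calls at an adjusted p of 0.05. SEs are the log2 fold change divided by the square root of F. Normalised CPM and RPKM use the TMM factors. The contrasts compared CD45+ with CD45- cells, double positive with CD45 single positive cells (over both genotypes, in each, and their difference), genotypes within populations, and the CD45- populations with each other. Alternatives were limma 3.58.1 voomWithQualityWeights, DESeq2 1.42.0, RLE factors, other filters, a replicate block and libraries left out. The scripts were tested on simulated data.

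Depth was 16594228 to 26784003 counted reads, and intervals and floors cover counting error only, since amplified reads carry no molecular identifiers. The 6 genes and the lists were chosen with earlier results of these data known. Named besides the 6 genes were list members called or counted in the CD45 comparison, receptor segments, the 3 genes most like each tested gene, and Ptprc, Cdh2, Cd3e and Sp7 as checks. The receptor segments, 5830411N06Rik, Il21 and Il22 were described after their values were seen. Replicate numbers were not used to pair libraries in the main model: 10 of 30 same-numbered pairs of a genotype correlated above 0.1 in their deviations from group means, with a highest r of 0.59. With so few libraries a group, these values cannot tell whether same-numbered libraries share a mouse. One gene of the lists is not reported here and was left out of its list.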

Additional observations from a re-analysis of the deposited data

Results flagged for a closer look

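In each of the 4 populations, over both genotypes, the highest or lowest library was set against the rest by Dixon's test. It marked 18 of 23 sets of values that were not all equal. The rate of about 1 in 20 at which such a test is set is no background for that count. The values are low counts whose spread is not normal. A set in which only 1 library held any count is marked whatever that count, as for Il17a and Il17f in double negative cells. The genes also shared marked libraries, so the sets were not independent. No cause was tested.

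Wild type CD45 single positive replicate 2 was the highest of 6 for each of the 6 genes, with 7.62 CPM of Tcrg-C1 against 1.54 in the next library, 7.51 of Cd163l1 against 2.14, 1.55 of Il17a against 0.439, 2.29 of Il17f against 0.481, 3.78 of Il23r against 0.330 and 0.687 of Sox13 against 0.220. Its pan T cell markers summed to 3405 CPM and its B cell markers to 3808 CPM.

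Wild type double positive replicate 3 stood out for 5 genes, with 4.22 CPM of Tcrg-C1 against 1.60 in the next library, 7.39 of Cd163l1 against 1.52, 2.43 of Il17a against 0.292, 0.739 of Il17f against 0.238 and 1.16 of Sox13 against 0.240. Its pan T cell markers, at 773 CPM, were the highest of the 6 double positive libraries.

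Among CD45- cells, wild type double negative replicate 3 stood out with 0.385 CPM of Tcrg-C1, 0.496 of Cd163l1 and 0.220 of Il17a, beside Ptprc at 337 CPM. Cdh2-cKO TdTOSX single positive replicate 2 had 0.273 CPM of Tcrg-C1, 0.319 of Cd163l1 and 0.365 of Il17a, where the other 3 libraries of that population had none. Cdh2-cKO double negative replicate 2 had 0.0970 CPM of Il17f on 2 counts, under the limit of 3 counts.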

How the results depend on the processing

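No alternative gave a call between double positive and CD45 single positive cells or between genotypes for any of the tested genes. Between those populations the direction of the uncalled values turned in some alternatives for each gene, except Il17a in mice labelled Cdh2-cKO. Between genotypes in double positive cells it held for Tcrg-C1 (-4.50 to -0.77), Cd163l1 (-4.54 to -2.20) and Il17a (-4.75 to -3.23), and turned for Sox13. The cause of each reversal was not tested. In CD45+ against CD45- cells, Tcrg-C1 kept its call in 30 of 30 alternatives (log2 fold change 3.18 to 5.69), Cd163l1 in 25 of 30, Il17a in 18 of 26 and Sox13 in 29 of 30. The number of genes called higher was 5 without the filter on low counts, where Il17f and Il23r entered the test, 1 with voomWithQualityWeights, 1 without wild type CD45 single positive replicate 2 and wild type double negative replicate 3 together, and 1 to 3 over libraries left out in turn. The number called lower was 0 to 1, the 0 without Cdh2-cKO TdTOSX single positive replicate 2. DESeq2 called 1 gene, Cd163l1, lower in TdTOSX single positive than in double negative cells.

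For double positive over CD45 single positive cells of both genotypes, voomWithQualityWeights turned the sign of Tcrg-C1 (log2 fold change 1.73), Cd163l1 (3.20) and Il17a (1.01). Without the filter and without wild type CD45 single positive replicate 2, together, they were 2.03, 3.90 and 1.04, an alternative chosen after seeing the data, and without that library and wild type double negative replicate 3 Tcrg-C1 was 2.03 and Cd163l1 3.89. Leaving out 1 library at a time gave -1.52 to 2.04 for Tcrg-C1, -1.03 to 3.91 for Cd163l1, -0.90 to 0.23 for Il17a and -2.97 to 1.08 for Sox13, the lowest for Sox13 without wild type double positive replicate 3, after which its wild type double positive group had no count. In wild type mice, Tcrg-C1 was 3.91 with voomWithQualityWeights, 3.93 with it on the 11 wild type libraries and 4.66 on those without CD45 single positive replicate 2, and 4.08 with edgeR without the filter and that library. Leaving out libraries gave -1.34 to 4.11 for Tcrg-C1, -0.79 to 9.08 for Cd163l1 and -5.41 to 2.70 for Sox13, where 9.08 for Cd163l1 and -5.41 for Sox13 are fitted values on groups at 0 counts. In mice labelled Cdh2-cKO, Cd163l1 was 0.13 with voomWithQualityWeights, and leaving out libraries gave -2.72 to 2.16 for Tcrg-C1, -2.36 to 3.00 for Cd163l1 and -1.56 to 0.034 for Sox13. The genotype difference of Sox13 in double positive cells ran from -2.81 to 4.19, and its difference between TdTOSX single positive and double negative cells from -1.77 to 0.11.

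With a replicate block (genotype by replicate number), Cd163l1 was 0.32 and Sox13 -0.25 over both genotypes, and Tcrg-C1 0.33 and Il17a -0.20 in wild type mice; the number of calls in no comparison moved by over 1.5 times. The numbers are not said to mark a shared mouse, and same-numbered libraries had a median r of 0.05 (-0.30 to 0.59) in their deviations.

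Depth limits all 6 genes: none passed 140 counts in a library of at least 16594228 reads, 3 libraries a group gave SEs of 1.39 to 2.02 on the log2 scale in wild type and Cdh2-cKO mice, and Il17f and Il23r rest on 82 and 108 counts in all.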
